A study of Mus musculus with 6 samples.

Results

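Transcripts of nucleotide breakdown, nucleoside transport and purine salvage were examined in the jejunum of mice lacking HNF4A in the intestinal epithelium (HNF4AΔIEC mutants) and of control mice. The 10 genes are Enpp3, Entpd5, Nt5e, Ada, Xdh, Slc28a1, Slc28a2, Slc29a1, Adk and Hprt. All 10 had a transcript cluster (the array's unit for a gene) that carried exactly 1 gene symbol, out of 22180 such genes, and the brightest cluster stood for each gene. The genes were chosen by role and with the mutant and control values of these arrays known, since Ada is among the genes the study lists as changed. Their values are therefore given as a description and without p-values. The mutants (n = 3) carried a Villin-promoter Cre transgene, active in the intestinal epithelium, and homozygous loxP-flanked Hnf4a alleles. The controls (n = 3) came from the same crosses, with a genotype that the sources do not spell out. All 6 were adult mice on a C57BL/6 background, kept on HFD (a high-fat diet) over 12 weeks and anaesthetised with ketamine and xylazine before sacrifice, and each gave 1 array of total RNA from whole jejunum. The sources used here do not give the sex, litter or scan batch of each array, though the study names its focus on males as a limitation.

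Dietary nucleic acids and extracellular nucleotides are taken apart in the small intestine in steps. Ectoenzymes of the brush border remove phosphates until AMP is left, CD73 turns AMP into adenosine, and sodium-coupled and equilibrative carriers move nucleosides across the membrane. Inside the cell adenosine is either deaminated by adenosine deaminase, on the way to hypoxanthine and urate, or returned to AMP by adenosine kinase. In the mouse, transcripts of Ada, Nt5e and Slc28a2 are known to be most abundant near the villus tip.

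Of the 10 genes, Ada was 2.22-fold lower in the mutants and had the greatest difference, Nt5e (2.04-fold), Slc28a2 (1.84-fold) and Enpp3 (1.39-fold) stood higher, and the other 6 differed less. In each case the values are log2 signals, and a difference is the mutant mean minus the control mean. The bases that lie directly before the start site of these 4 genes are shown first, because HNF4A is a DNA-binding factor and these genes showed the greatest differences. Each line holds bases before the annotated start of the gene, from RefSeq on GRCm38.p6 (250 bases, and 172 for Slc28a2, whose RefSeq window reaches past the gene's first annotated base), and capitals mark the GC box GGGCGG read on either strand.
Ada, chr2:163750240-163750489, minus strand: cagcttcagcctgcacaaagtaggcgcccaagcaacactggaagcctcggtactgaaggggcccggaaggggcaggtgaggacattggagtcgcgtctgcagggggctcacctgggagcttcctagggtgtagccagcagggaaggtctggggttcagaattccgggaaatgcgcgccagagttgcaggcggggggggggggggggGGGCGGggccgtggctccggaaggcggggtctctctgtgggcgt
Nt5e, chr9:88327359-88327608, plus strand: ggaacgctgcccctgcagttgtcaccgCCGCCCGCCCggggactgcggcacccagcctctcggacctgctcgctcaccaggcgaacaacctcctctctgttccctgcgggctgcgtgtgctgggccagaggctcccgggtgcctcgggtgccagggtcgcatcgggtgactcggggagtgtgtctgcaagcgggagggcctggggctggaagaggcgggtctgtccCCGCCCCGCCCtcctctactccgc
Enpp3, chr10:24836196-24836445, minus strand: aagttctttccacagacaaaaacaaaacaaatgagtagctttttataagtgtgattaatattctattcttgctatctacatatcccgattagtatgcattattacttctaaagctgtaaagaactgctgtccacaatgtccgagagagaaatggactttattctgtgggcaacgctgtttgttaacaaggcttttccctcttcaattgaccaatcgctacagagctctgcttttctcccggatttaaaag
Slc28a2, chr2:122426185-122426356, plus strand: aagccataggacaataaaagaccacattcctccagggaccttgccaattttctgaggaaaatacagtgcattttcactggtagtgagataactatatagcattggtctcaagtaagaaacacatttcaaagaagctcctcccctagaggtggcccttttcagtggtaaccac

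The 4 stretches were of different kinds. That of Ada was 67.2% G and C with 1 GC box beside a long run of G, and that of Nt5e was 72% G and C with 4 boxes, which overlap in pairs. Those of Enpp3 (36.8%) and Slc28a2 (42.4%) held 0 boxes. The median over 32851 promoter stretches of 250 bases was 52.4%, and 32.7% of them held at least 1 GC box. The GC box was chosen after these sequences were seen. Motifs of HNF4 itself were searched on both strands as CAAAGTCCA, CAAAGTTCA and a direct repeat of AGGNCA with 1 base of any kind between the copies, in the longer windows of 300 bases, which reach 50 bases past the start. Windows were at hand for 9 of the 10 genes (17 windows, since Adk and Slc29a1 have several starts), Xdh being the other, and they held 0 matches. Of all 32851 windows 1.24% held at least 1 of the 3 motifs (0.475%, 0.390% and 0.381% for each in turn).

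Hnf4a itself checks the labels. Its signal was 9.49, 9.25 and 9.11 in the 3 mutants and 10.74, 10.60 and 10.57 in the 3 controls, so each mutant lay below each control. Medians of the 6 arrays lay between 5.53 and 5.58, and control 1 stood apart along the leading principal component (29.1% of variance). The level taken as background was 5.43, the 95% point of 1108 olfactory receptor clusters in controls, and all 10 genes lay above it on every array. Of 12 enterocyte markers 11 were measured. Their group means ran from 11.04 (Treh, mutants) to 13.48 (Apoa4, mutants), far above background. That 0 of them lay below background on all arrays does not set them apart, since this also held for T and NK lymphocyte markers. In whole tissue, fewer cells of a type and less RNA per cell cannot be told apart.

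**Figure D1:**
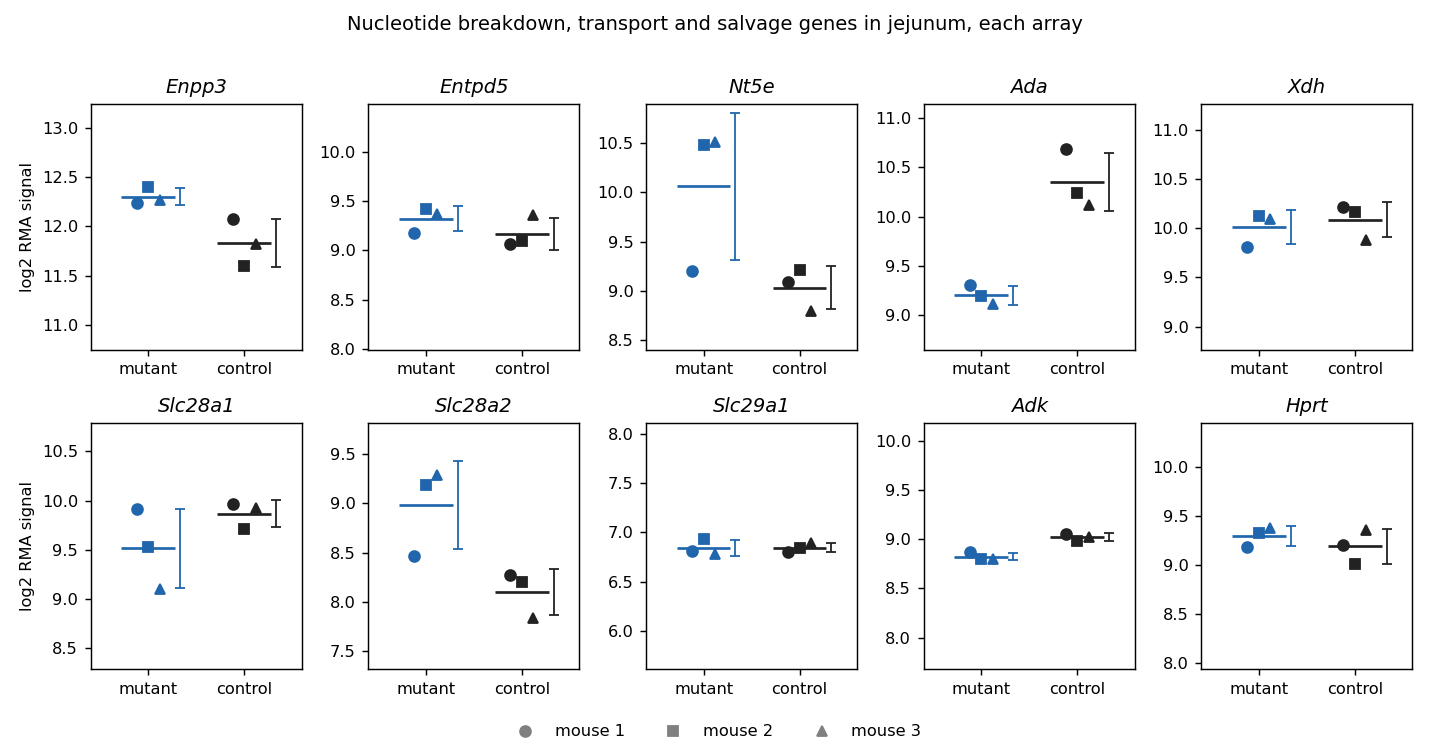
Log2 signal of the 10 genes on each array, mutants (blue) left of controls (black), with a line at the group mean and a bar of 1 SD (n = 3). Symbols mark the mouse number within each group, which the labels do not describe as a pairing across groups. Every vertical axis spans the same range, and Ada shows the 3 mutants between 9.11 and 9.30 against controls between 10.12 and 10.69.

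Enpp3 and Entpd5 both encode enzymes that cleave nucleotides. Enpp3 (chromosome 10, 24773814 to 24836195, GRCm38) encodes an ectonucleotide pyrophosphatase that cleaves nucleoside triphosphates at the cell surface. Its signal was 12.24, 12.40 and 12.27 in the mutants and 12.08, 11.60 and 11.82 in the controls, a difference of 0.47 (SE 0.14), or a 1.39-fold higher level. The groups did not overlap, though control 1 came close to the lowest mutant. Without control 2, the lowest control, the difference was 0.35, and without control 1 it was 0.59. Entpd5 (chromosome 12, 84373875 to 84409029) encodes a nucleoside diphosphatase of the endoplasmic reticulum, and its groups overlapped, with 9.18 to 9.42 in mutants and 9.06 to 9.36 in controls (difference 0.15, SE 0.12). The Entpd5 difference was 0.10 without control 1 and 0.25 without control 3.

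Nt5e (chromosome 9, 88327609 to 88372089) encodes CD73, the ecto-5′-nucleotidase that makes adenosine from AMP. Its signal was 9.20, 10.48 and 10.51 in mutants 1, 2 and 3 and 9.09, 9.22 and 8.79 in controls 1, 2 and 3. Mutants 2 and 3 lay far above the controls, whereas mutant 1 lay among them. The mutant mean was 10.06 ± 0.75 and the control mean 9.03 ± 0.22 (SD, n = 3 each), a difference of 1.03 (SE 0.35) that was 1.46 without mutant 1 and 0.81 without mutant 3. Of the 10 genes, Nt5e had the widest spread within a group.

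Ada (chromosome 2, 163726571 to 163750239) encodes adenosine deaminase, which converts adenosine and deoxyadenosine into inosine and deoxyinosine. Its signal was 9.30, 9.19 and 9.11 in the mutants and 10.69, 10.24 and 10.12 in the controls. The mutants lay close together, and the highest of them was well below the lowest control. The mutant mean was 9.20 ± 0.10 and the control mean 10.35 ± 0.30 (SD, n = 3 each), a difference of -1.15 (SE 0.16), or a 2.22-fold lower level. Of 22180 genes, 34 had a more negative difference. The difference ranged from -1.27 without control 3 to -0.98 without control 1, the control with the highest Ada signal.

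Xdh (chromosome 17, 73883895 to 73950397) encodes xanthine dehydrogenase, the last enzyme of purine breakdown before urate. It overlapped between the groups, at 9.82, 10.13 and 10.09 in mutants and 10.22, 10.16 and 9.88 in controls (difference -0.08, SE 0.14). The difference was 0.02 without mutant 1, so its sign rested on that mouse, and -0.18 without control 3.

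The 3 carriers differed among themselves. Slc28a2 (chromosome 2, 122426357 to 122461152) encodes the concentrative carrier that prefers purine nucleosides, and its signal was 8.47, 9.19 and 9.29 in mutants 1, 2 and 3 and 8.27, 8.20 and 7.84 in the controls. All mutants lay above all controls, mutant 1 by the least. The difference was 0.88 (SE 0.24), a 1.84-fold higher level, and was 1.14 without mutant 1 and 0.73 without mutant 3. Slc28a1 (chromosome 7, 81113269 to 81170416), the carrier that prefers pyrimidine nucleosides, stood at 9.91, 9.53 and 9.11 in mutants and 9.97, 9.71 and 9.92 in controls. Its mutants varied more than its controls (SD 0.40 and 0.14), the highest of them lying among the controls, and the difference of -0.35 (SE 0.21) was -0.15 without mutant 3 and -0.55 without mutant 1. Slc29a1 (chromosome 17, 45585200 to 45599618), the equilibrative carrier, had nearly equal means of 6.84 ± 0.08 in mutants and 6.84 ± 0.04 in controls, and the sign of its difference turned under 5 of 11 alternatives. A dimmer cluster of Slc29a1 lay below background.

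Adk and Hprt return purines to the nucleotide pool. Adk (chromosome 14, 21052574 to 21448569), adenosine kinase, competes with adenosine deaminase for adenosine. It stood at 8.87, 8.80 and 8.80 in mutants and 9.06, 8.98 and 9.02 in controls, groups that did not overlap but differed by only -0.20 (SE 0.09), a 1.15-fold lower level. Hprt (chromosome X, 52988078 to 53021660), which salvages hypoxanthine and guanine, overlapped between the groups at 9.18 to 9.37 in mutants and 9.01 to 9.36 in controls (difference 0.10, SE 0.12). The Hprt difference was 0.01 without control 2 and 0.19 without control 3.

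**Figure D2:**
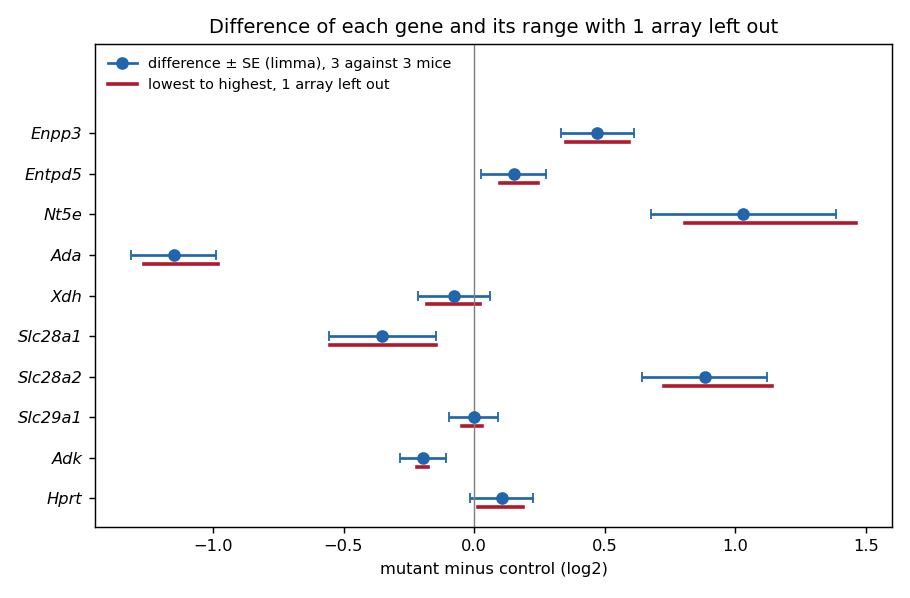
Mutant minus control difference on the log2 scale for each of the 10 genes, with its standard error from limma (blue points and bars), and the lowest and highest difference when any 1 array is left out (red lines). Ada stays between -1.27 and -0.98, and Nt5e has the longest red line, from 0.81 to 1.46.

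Groups did not overlap for 4 of the 10 genes (Ada and Adk lower, Enpp3 and Slc28a2 higher in mutants), where 14.3% of all genes did not overlap. In limma with Benjamini-Hochberg adjustment, 0 of the 10 were called at an adjusted p under 0.10 over all 41345 clusters, of which 0.0121% were called. With dim clusters filtered out, Ada was called, as 1 of 38 clusters called in all. In a second fit over the 23521 clusters with 1 symbol (the 1-symbol fit), of which 0.472% were called, Ada was called and the other 9 were not. The same comparison chose the genes, so nothing is read from these counts. In the 1-symbol fit Ada was not called without mutant 2 or without mutant 3, where only 10 and 34 clusters were called in all. Without mutant 1, where 63 clusters were called, Nt5e and Slc28a2 were called beside Ada. Mutant 1 was the lowest mutant for Nt5e and Slc28a2, so nothing is read from these leave-out calls either.

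Nt5e, Slc28a2 and Xdh each had mutant 1 as the lowest mutant and control 3 as the lowest control. Between Nt5e and Slc28a2 the root mean square difference was 0.20, which ranked 8 among 45 pairs. It was taken between log2 profiles, each centred on its own mean over the 6 arrays. The 7 closer pairs were all among Xdh, Entpd5, Adk, Hprt and Slc29a1, genes with small differences. By the same measure, the 5 genes most like Ada out of 12653 genes above background on all arrays were Rdh16, Aldh1l1, Slc22a4, Hnf4a and Mexis, at 0.13, 0.13, 0.15, 0.17 and 0.17. Rdh16, a retinol dehydrogenase, stood at 6.36, 6.29 and 6.21 in mutants and 7.84, 7.26 and 6.88 in controls. Aldh1l1, a folate dehydrogenase, stood at 7.84, 7.75 and 7.71 in mutants and 8.89, 8.69 and 8.53 in controls. In both, as in Ada, control 1 was the highest control and the mutants lay close together. Slc22a4, an organic cation carrier, differed by -0.86 and Mexis, a non-coding RNA, by -1.16. The measure picks genes with a difference like that of Ada, so these shared values are a description.

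Ada lies near the deleted gene. On chromosome 2 the annotated spans of Hnf4a and Ada are 153663 bases apart. Ada is read from the minus strand, so its 3′ end faces Hnf4a and 177331 bases lie between the end of Hnf4a and the start site of Ada. Genes within 500 kb of Ada were looked at after this was seen. Besides Ada and Hnf4a, 21 protein-coding genes there had a cluster with 1 symbol, 5 of them at or below background on all arrays. Of the 21, 11 differences were above 0 and 10 below, with a median of 0.004, against 0.01 over all genes. The 2 measured between Hnf4a and Ada were Ttpal (7.10 ± 0.21 in the mutants, 7.16 ± 0.03 in the controls) and Serinc3 (12.01 ± 0.05 in the mutants, 12.07 ± 0.28 in the controls), which differed by -0.06 each. Of the 21, only R3hdml, on the far side of Hnf4a from Ada, was called in the 1-symbol fit (0.472% of its clusters were called). It was higher, at 6.77, 6.98 and 6.86 in mutants and 5.74, 5.72 and 6.17 in controls (difference 0.995). Whether position bears on the Ada difference was not tested.

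**Figure D3:**
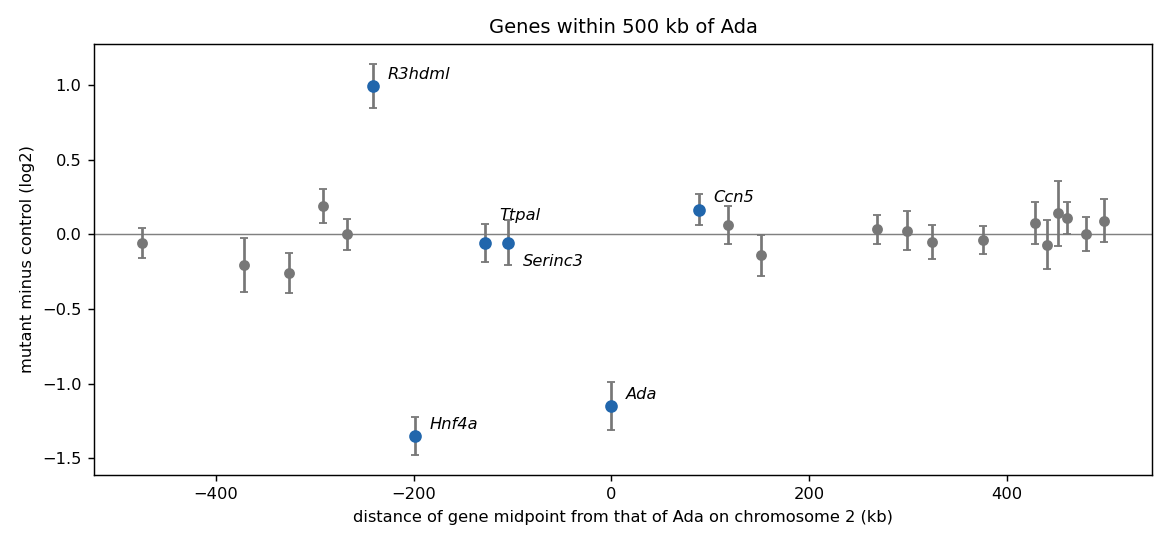
Mutant minus control difference (log2, with SE from limma) of the protein-coding genes within 500 kb of Ada, against the distance in kb of each gene's midpoint from that of Ada. Ada (-1.15) and Hnf4a (-1.35) are the low points and R3hdml (0.995) the high one, and the other named genes lie near 0.

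The rest of nucleotide metabolism was read from 98 further genes in 9 role lists, of which 86 had a cluster with 1 symbol. In limma 0 of the 86 were called at an adjusted p under 0.10, over all clusters (0.0121% called) or over clusters with 1 symbol (0.472% called). The fit over all clusters did not call the deleted gene Hnf4a either (limma adjusted p = 0.111), whereas the 1-symbol fit did (limma adjusted p = 0.00743). A count of 0 is therefore not read as an absence of change. At an unadjusted p under 0.05 there were 12 of the 86 (6 higher, 6 lower), where 6.53% of all genes reached it. The median difference was -0.01, against 0.01 over all genes, with 39 above 0 and 47 below.

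Slc28a3, the third concentrative nucleoside carrier and one of broad preference, had the smallest p of the 86. It stood at 7.43, 7.30 and 7.34 in mutants and 8.15, 7.81 and 7.82 in controls. All mutants lay below all controls, and the difference was -0.57 (95% interval -0.86 to -0.28, limma adjusted p = 0.437 over all clusters and 0.130 over those with 1 symbol). In the same transport list, Slc17a9, a vesicular nucleotide carrier, differed by 0.33 (adjusted p = 0.701), and the other 6 genes had larger p.

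Of 10 further purine deamination and breakdown genes 8 were below 0, and of 7 pyrimidine breakdown genes 4, where 52.7% of all genes lay above 0. In each of these lists 2 genes were at or below background on all arrays. The smallest p among the purine genes was that of Urah, an enzyme downstream of urate, at 6.72, 6.55 and 6.54 in mutants and 7.23, 6.93 and 7.12 in controls (difference -0.49, limma adjusted p = 0.481). Urate oxidase (Uox) differed by -0.52 (limma adjusted p = 0.662) but lay below background on all 6 arrays. In pyrimidine breakdown, Upb1, the enzyme of its last step, stood at 6.20, 6.21 and 5.97 in mutants and 7.004, 6.57 and 7.35 in controls (difference -0.85, 95% interval -1.33 to -0.37, limma adjusted p = 0.481 over all clusters). Without control 2, Upb1 was the only gene of the 86 called in the 1-symbol fit, where 108 clusters were called in all. Uridine phosphorylase (Upp1) differed by -0.57 (limma adjusted p = 0.564). None of these 4 passed with all arrays.

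Upb1, Urah and Uox are abundant in liver, and hepatocyte markers also stood lower in the mutants. All 10 measured hepatocyte markers were below 0 (median -1.66), and 1 lay below background on all arrays. In the 1-symbol fit 4 were called lower, where 0.472% of its clusters were called in either direction. The listed marker Cps1, high in both groups (10.82 in mutants, 10.97 in controls), differed by only -0.15, with overlap. The mean of the 10 markers, relative to controls, was -1.28, -1.59 and -1.87 in the mutants and 0.33, -0.75 and 0.42 in controls 1, 2 and 3. Control 2 was also the lowest control for Upb1 and Urah. The part of these markers in the values was not tested.

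Median differences were close to 0 in purine synthesis (0.02), pyrimidine and deoxynucleotide synthesis (-0.01) and salvage (0.02), though single genes lay further out. In purine synthesis 5 of 10 were above 0, and Prps2, a phosphoribosyl pyrophosphate synthetase, had the smallest p (7.58 ± 0.11 in mutants and 7.14 ± 0.24 in controls, difference 0.44, limma adjusted p = 0.627), before Paics (0.19). In pyrimidine and deoxynucleotide synthesis 5 of 11 were above 0, with Umps, the enzyme that makes UMP, at 7.61 ± 0.03 in mutants and 7.31 ± 0.09 in controls (difference 0.29, limma adjusted p = 0.618), and the CTP synthase Ctps at -0.17. In salvage 5 of 9 were above 0, and Uprt (0.29) and the uridine kinase homolog Uckl1 (-0.15) had the smallest p. Among 11 measured 5′-nucleotidases and nucleotide hydrolases 0 reached an unadjusted p under 0.05, and Nt5c1a (-0.22, below background) and Samhd1, a dNTP hydrolase (-0.21), had the smallest p.

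Among extracellular hydrolases 5 of 12 were above 0. The alkaline phosphatase Alppl2 stood at 5.004, 5.22 and 5.19 in mutants, all below background (5.43), and 5.61, 5.66 and 5.55 in controls, close above it. Its difference was -0.47 (limma adjusted p = 0.439), and that of Akp3 was -0.52. Akp3 was highest in control 1 (6.58, against 5.57 and 5.82 in controls 2 and 3). Of the receptors for adenosine and nucleotides 5 of 8 were above 0, with a median of 0.22. P2rx4, an ATP-gated channel, stood at 9.60, 9.52 and 9.37 in mutants and 8.98, 9.07 and 9.23 in controls (difference 0.41, limma adjusted p = 0.564). The groups of P2rx4 did not overlap, whereas those of P2ry4, a receptor for UTP, did (difference 0.42, limma adjusted p = 0.668).

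**Figure D4:**
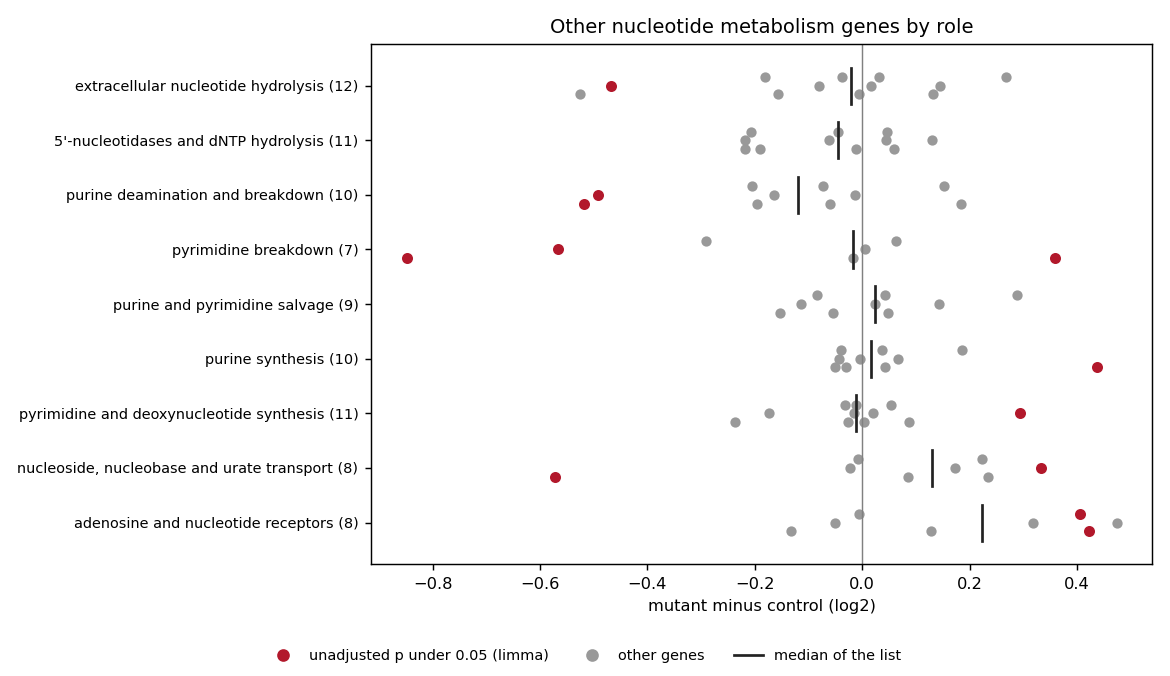
Mutant minus control difference (log2) of 86 other nucleotide genes in 9 role lists, with the number measured in parentheses, a vertical line at each list's median and red points for an unadjusted p under 0.05 in limma. The lowest point is Upb1 at -0.85, and the receptor list has the highest median (0.22).

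Ada and Nt5e are also expressed by lymphocytes, so the cell type markers were set beside them. Of 12 measured T and NK lymphocyte genes 11 were below 0 (median -0.46). In the 1-symbol fit 4 (Gzma, Gzmb, Ccl5 and Cd7) were called lower, where 0.472% of its clusters were called in either direction. The mean of the 12 relative to controls was -0.43, -0.60 and -0.49 in the mutants and 0.01, -0.07 and 0.06 in the controls, without overlap. On all arrays 0 of the 12 lay below background. The part of these markers in the Ada difference was not tested. Enterocyte markers had a mean of -0.05, -0.07 and 0.01 in the mutants and 0.07, -0.04 and -0.03 in the controls, which overlapped. Villus tip markers outside the 10 genes (Apoa4 is in both lists) were above 0 in 4 of 6 (median 0.03), with a mean of 0.11, -0.04 and -0.04 in mutants 1, 2 and 3 and 0.05, 0.00 and -0.05 in the controls. The higher mean of mutant 1 rested on Fos (9.42 in mutant 1, 8.57 in mutants 2 and 3). Without Fos, left out after its values were seen, the mean of the other 5 was 0.09, 0.08 and 0.09 in the mutants and 0.06, 0.04 and -0.10 in the controls.

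**Figure D5:**
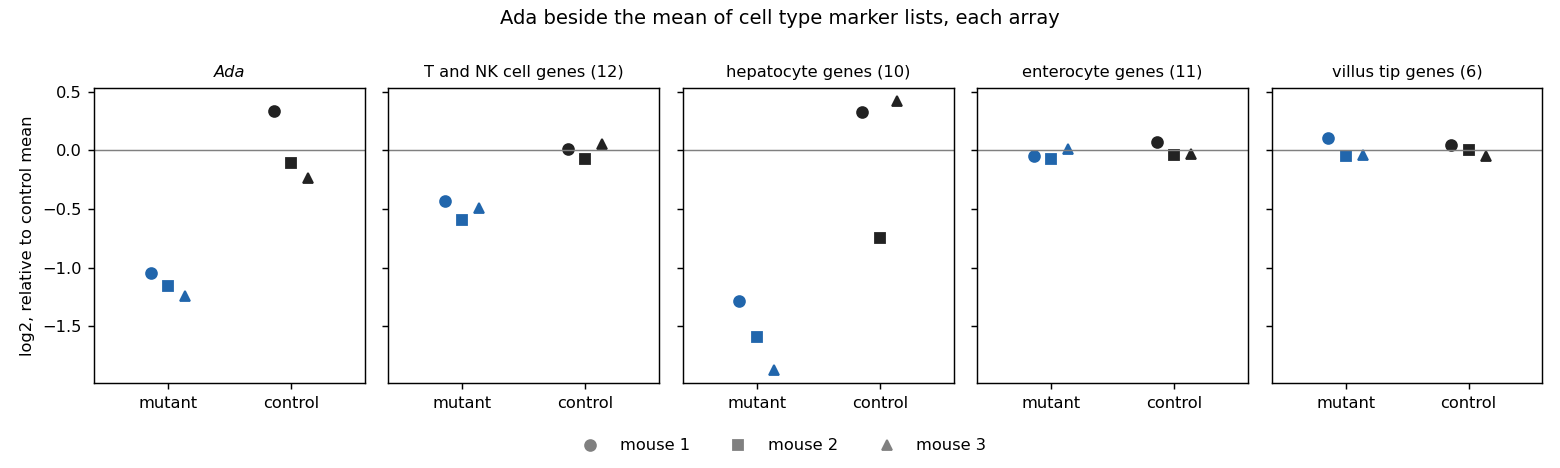
Log2 signal of Ada and mean log2 signal of 4 marker lists on each array, relative to the control mean, mutants (blue) left of controls (black), with the number of genes measured in parentheses. T and NK cell genes and hepatocyte genes lie lower in all 3 mutants, as Ada does, and the enterocyte and villus tip lists lie near 0.

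In the other 9 marker lists the median differences lay closer to 0 than in the T and NK cell and hepatocyte lists. Crypt and proliferation genes were above 0 in 7 of 11 (median 0.05), proximal small intestine genes in 3 of 6 (median -0.01), distal genes in 2 of 5 (median -0.03), B and plasma cell genes in 3 of 7 (median -0.03), macrophage and dendritic cell genes in 8 of 8 (median 0.17), mast cell genes in 5 of 8 (6 of them below background), endothelial genes in 7 of 8 (median 0.08), fibroblast and smooth muscle genes in 6 of 12 (median 0.06) and pancreatic acinar genes in 4 of 6 (median 0.15, 4 of them below background). In limma 0 of the 71 genes measured in these lists were called, over all clusters (0.0121% called) or in the 1-symbol fit (0.472% called). An unadjusted p under 0.05 was reached by 11 of the 71 (15.5%), where 6.53% of all genes reached it. Fgf15, a hormone gene of the distal list named after its values were seen, stood at 7.45, 6.80 and 8.01 in mutants and 6.54, 5.83 and 6.56 in controls, without overlap (difference 1.11), and was not called. The rest of the distal list did not follow it, with differences of -0.58 (Fabp6), -0.18 (Gpbar1), -0.03 (Slc51a) and 0.15 (Slc10a2).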

How the data were processed

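The deposited values are log2 expression values, which the authors computed with RMA (robust multi-array average) in Transcriptome Analysis Console. This method removes background, brings all arrays to one distribution and summarises probes per transcript cluster, so weak signals are compressed and differences in total RNA per cell are lost. The methods name another Affymetrix array than the one the cluster identifiers match. Of 41345 clusters 23521 carried 1 symbol, 1820 several and 16004 none. The 6 arrays were grouped by their titles. Mutants were compared with controls by linear models with empirical Bayes moderation (limma 3.58.1, R 4.3.3). Two-sided p-values were adjusted by Benjamini-Hochberg across all clusters and, as an alternative, across those with 1 symbol, and the threshold was an adjusted p of 0.10. An exact permutation test of 3 against 3 cannot go below 0.10, so none is given. The fits were first tested on simulated data with known changes. The members and lists were chosen with earlier results of these data known. Named genes were the 10 members, Hnf4a, the 5 most like Ada, other nucleotide genes that were called, and the 2 with the smallest p in each role list. The GC box and the 500 kb window were chosen, and neighbours of Ada, Gzma, Gzmb, Ccl5 and Cd7 were named after their values were seen. Of 98 further genes 86 matched, and the rest were not analysed here. Group errors are SD, and errors of differences are standard errors (SE). Precision is limited by having 3 arrays a group. Labels do not say that these were separate litters or extractions, so p-values measure only the spread between these samples.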

Additional observations from a re-analysis of the deposited data

How the results depend on the processing

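Alternatives were clusters with 1 symbol, a filter on dim clusters, repeated quantile normalization, centring on the median, a robust prior with an intensity trend, no moderation, array weights, a threshold of 0.05, the replicate number as a block, the mean over clusters of a gene, and leaving out each array. The count of other nucleotide genes called was 0 under all 16, with 7 to 15 at an unadjusted p under 0.05. Over all genes of the array the count of called clusters was 5, against 111 with 1 symbol, 38 with the dim filter, 17 with the trend and 0 with the block, without moderation or at 0.05. Leaving out an array gave 0 to 16. Of the members, 1 (Ada) was called with 1 symbol and with the dim filter, and 0 under the other alternatives. Among 110 member values 1 moved by its SD or more (Adk, -0.15 after quantile normalization, against -0.20), and 6 changed sign, all of Xdh or Slc29a1. The difference of Ada lay between -1.27 and -0.98 with an array left out and between -1.16 and -1.12 under the others. Replicate numbers did not pair the mice (deviations of mice with the same number correlated at -0.11, -0.0065 and -0.051), and with the number as a block 0 members were called over all clusters, while over clusters with 1 symbol Ada was called among 64 clusters, against 111 without the block.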
